A study of Mus musculus with 6 samples.

Results

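The FGF signalling genes described here are 10 genes taken by symbol from the 30462 genes of the deposited table: the ligands Fgf8, Fgf10 and Fgf20, the receptors Fgfr1, Fgfr2 and Fgfr3, the Sprouty inhibitors Spry1, Spry2 and Spry4, and the transcription factor gene Etv5. They were measured by RNA sequencing of the mouse cochlea, the coiled part of the inner ear that detects sound, at postnatal day 7. The comparison was between 3 libraries labelled NEU4 KO (replicates 2, 4 and 5, called knockout below) and 3 labelled WT (replicates 3, 4 and 5, called wild type). Neu4 encodes a sialidase, and the labels give neither the strain nor the part of the gene that was altered, nor whether the libraries came from separate animals, so p-values measure the spread between these libraries, which may be technical. All values are FPKM, sequenced fragments scaled to exon length and library total.

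Fibroblast growth factors bind receptor tyrosine kinases together with heparan sulfate and signal through adaptor proteins, Ras and the MAP kinase cascade. Sprouty proteins are made in response to this signal and dampen it, and ETS factors of the Etv4 and Etv5 group are among its common transcriptional targets. In the cochlea, Fgf20 acts on Fgfr1 in the early sensory progenitors, Fgf8 from inner hair cells acts on Fgfr3 in the neighbouring supporting cells to form pillar cells, and Fgf10 acts mainly through Fgfr2 in the outgrowth of the non-sensory epithelium.

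In these cochleae none of the 8 genes that could be tested changed between the genotypes after adjustment over all genes (limma, smallest adjusted p = 0.128), where 0.334% of all tested genes did. With voom, an alternative that called 2.76% of all genes, 1 was called (Fgfr2). The groups did not overlap for 4 of the 8, against 24.8% of all tested genes, and these differences were small. Fgfr2 and Etv5 were higher in every knockout library than in every wild type library, by 15.9% and 13.25% of the wild type mean, and Spry2 and Spry4 were lower in every knockout library, with means 16.5% and 15.7% under wild type. Fgfr1, Fgfr3, Fgf10 and Spry1 overlapped between the groups, and Fgf8 and Fgf20 were close to the detection limit.

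The library totals recovered from the FPKM values lay between 15170973 and 17192293 fragments, and 47 of 14072 tested genes (0.334%) changed between the groups, 0.128% higher and 0.206% lower in knockout (18 against 29 genes, or 11 against 33 with median-ratio scaling; limma, Benjamini-Hochberg adjusted p under 0.05). That count depended on single libraries, from 12 without wild type 3 or without wild type 4 to 105 without knockout 5, with 15 without knockout 2, 16 without knockout 4 and 21 without wild type 5. Neu4 itself was at 0.0797 ± 0.0255 FPKM in knockout and 0.0779 ± 0.0242 in wild type (SD, n = 3, exact two-sided permutation p = 0.8, the smallest possible being 0.1), so its RNA did not check the labels. Knockout 2 and wild types 3 and 4 had Ddx3y and no more than traces of Xist, as male tissue has, and the other 3 libraries were female by the same genes. The tissue label was checked on markers. Of the hair cell list 10 of 13 genes passed the filter on low values, and Atoh1, Tmc1 and Slc26a5 did not. Of the 12 pillar and Deiters cell genes 9 passed, Hes5 and Prox1 were under the filter, and Fam19a3 was not matched. Over all lists, 0 markers were at 0 in all libraries.

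The RefSeq windows before the transcription start of the 3 printed members whose groups did not overlap, and of Spry1 beside its paralogue Spry2, are shown to let the reader compare them (GRCm38.p6, 250 bases each, 5′ to 3′ on the gene's strand). Capitals mark CCAAT and GGGCGG matches on either strand. The windows are chr14:105896820-105897069 (minus strand) for Spry2, chr3:37639697-37639946 (plus strand) for Spry1, chr16:22439571-22439820 (minus strand) for Etv5 and chr7:130266809-130267058 (minus strand) for Fgfr2.
Spry2: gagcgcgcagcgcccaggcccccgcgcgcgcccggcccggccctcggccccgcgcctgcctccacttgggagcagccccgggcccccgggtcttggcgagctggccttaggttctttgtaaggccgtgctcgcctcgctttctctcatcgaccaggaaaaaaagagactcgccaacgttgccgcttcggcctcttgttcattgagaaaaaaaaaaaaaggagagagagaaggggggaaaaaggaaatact
Spry1: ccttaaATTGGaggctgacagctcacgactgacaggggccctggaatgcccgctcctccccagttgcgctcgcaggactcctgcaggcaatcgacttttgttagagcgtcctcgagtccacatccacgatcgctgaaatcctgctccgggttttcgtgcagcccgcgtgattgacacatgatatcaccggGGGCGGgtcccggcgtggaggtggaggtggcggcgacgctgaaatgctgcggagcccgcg
Etv5: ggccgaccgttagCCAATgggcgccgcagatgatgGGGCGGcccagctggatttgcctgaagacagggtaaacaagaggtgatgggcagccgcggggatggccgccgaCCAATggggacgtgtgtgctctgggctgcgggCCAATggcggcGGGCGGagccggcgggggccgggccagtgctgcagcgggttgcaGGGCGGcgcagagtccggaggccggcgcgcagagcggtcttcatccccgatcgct
Fgfr2: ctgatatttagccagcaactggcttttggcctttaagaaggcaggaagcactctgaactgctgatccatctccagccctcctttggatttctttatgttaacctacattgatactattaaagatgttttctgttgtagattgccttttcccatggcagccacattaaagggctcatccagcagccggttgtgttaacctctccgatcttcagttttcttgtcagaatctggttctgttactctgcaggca

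The Spry1 and Spry2 windows had the same base composition, 62.4% G or C with 23 CpG each, and the printed window of Etv5 held 71.2% with 27 CpG, while that of Fgfr2 had 44.0% and 2 CpG. The median over 32851 RefSeq windows of this length was 52.4% and 6 CpG. The printed Etv5 window held 3 CCAAT and 3 GGGCGG matches, that of Spry1 held 1 of each, and those of Spry2 and Fgfr2 held neither; no matches overlapped in these windows. A second RefSeq start of Etv5 has a window at chr16:22438369-22438618 (minus strand) with 62.0% G or C, 18 CpG, 1 CCAAT and 0 GGGCGG matches. CCAAT occurred in 33.85% and GGGCGG in 32.74% of all windows. The letters TATAAA (in 12.37% of all windows), CCGGAA, a core bound by ETS factors (12.03%), and TGACTCA, bound by AP-1 (4.46%), matched 0 of the 8 windows found for 6 members (Spry1, Spry2, Etv5, Fgfr2, Fgfr3 and Fgf10). Windows for Fgf8, Fgf20 and Fgfr1 were not matched. Spry4 has no window here, as members on chromosome 18 were left out of the motif search.

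The order of the 10 genes was the same in both scalings tried. Averaged over the 6 libraries it ran from Fgfr1 (71.4 FPKM) through Fgfr3 (42.1), Fgfr2 (26.2), Etv5 (13.4), Spry2 (8.70), Spry1 (6.92), Spry4 (4.89) and Fgf10 (2.87) to Fgf8 (0.254) and Fgf20 (0.0364). FPKM is per exon length, so these levels can be roughly set side by side. That length counts every annotated exon of a gene, used in this tissue or not, and its effect on the order was not tested. The ranges over libraries overlapped between the neighbours Spry2 and Spry1, between Spry1 and Spry4, and between Fgf8 and Fgf20, and were separate for all other neighbours. The receptors were thus each above every other gene of the set, and the ligands below it.

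**Figure D1:**
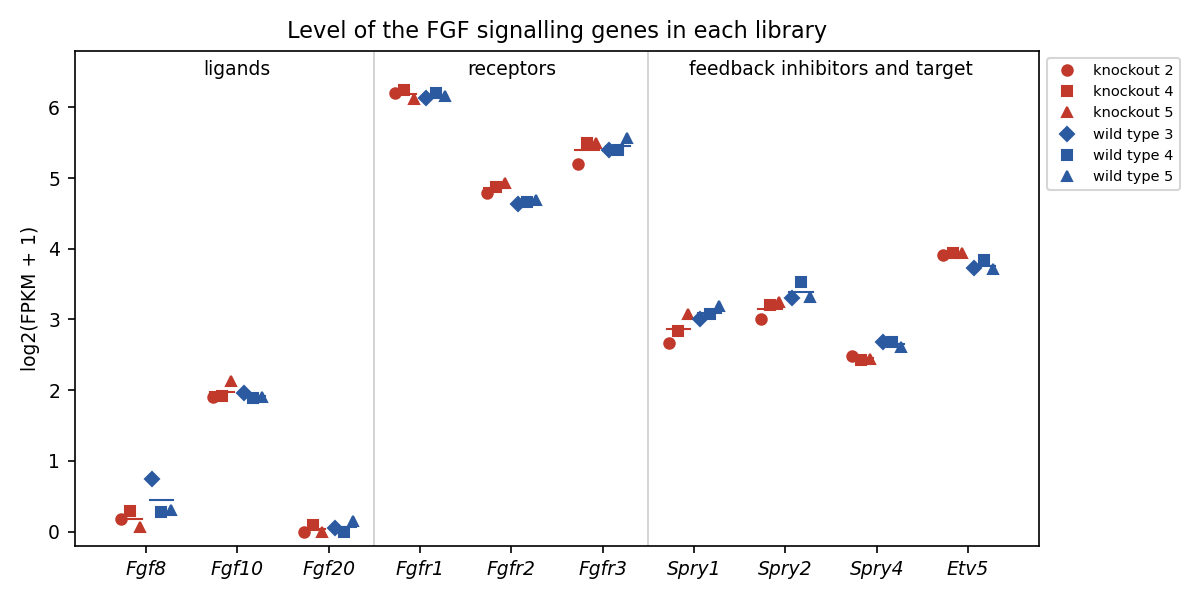
Level of each FGF signalling gene as log2(FPKM + 1), with 1 point per library (red knockout, blue wild type, the symbol giving the replicate number) and a bar at each group mean. The receptors sit highest, led by Fgfr1 at 71.4 FPKM, and the ligands lowest, with Fgf20 at 0 in 3 of the 6 libraries.

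Of the ligands, Fgf10 (ENSMUSG00000021732, chr13:118669791-118792115, plus strand, GRCm38) was the one measured well. In the order knockout 2, 4, 5 its FPKM was 2.73, 2.77 and 3.37, and in the order wild type 3, 4, 5, used throughout, it was 2.90, 2.72 and 2.75. The groups overlapped, with knockout 5 above all others (log2 fold change on log2(FPKM + 1) 0.06, SE 0.083, 95% interval -0.14 to 0.25, adjusted p = 0.747, limma). The interval on this scale spans a fold of 0.91 to 1.19. Without knockout 5 the sign turned, to -0.01.

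Fgf8 and Fgf20 did not reach the filter of 1 FPKM in 3 libraries. Fgf8 (ENSMUSG00000025219, chr19:45736798-45742915, minus strand) gave 3, 5 and 1 fragments in the knockout libraries and 15, 5 and 5 in the wild type libraries, where 1 fragment was worth about 0.0452 FPKM. In FPKM this was 0.133, 0.219 and 0.0488 against 0.673, 0.215 and 0.232. The groups overlapped, and wild type 3 alone held 15 of the 25 wild type fragments. Pooled over libraries, the knockout rate divided by the wild type rate was 0.367 (95% interval 0.151 to 0.813). It was 0.612 (0.220 to 1.68) without wild type 3 and 0.473 (0.185 to 1.08) without knockout 5. Leaving out any other library gave a ratio from 0.2497 (without knockout 4) to 0.3715 (without knockout 2). These exact intervals cover counting error alone, and in the fit with no filter the adjusted p was 0.549 (limma).

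Fgf20 (ENSMUSG00000031603, chr8:40279166-40308331, minus strand) rested on 2 fragments in knockout, all in knockout 4, and 4 in wild type, 1 in wild type 3 and 3 in wild type 5. Its rate ratio, formed in the same way, was 0.51 (95% interval 0.0461 to 3.56), so no difference was detectable at this depth. Single libraries set this ratio: it was 1.38 without wild type 5, 0 without knockout 4, 0.774 without knockout 2 and 0.333 without wild type 4. Of its exon bases 12.0% are shared with Micu3 on the opposite strand, which was at 1.68 ± 0.0942 FPKM in knockout and 1.40 ± 0.214 in wild type (SD, n = 3).

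Fgfr1 (ENSMUSG00000031565, chr8:25513654-25575718, plus strand) was the most abundant receptor. Its FPKM was 73.0, 74.9 and 68.6 in the knockouts and 68.8, 72.6 and 70.5 in the wild types. The lowest and the highest value were both in knockout libraries (log2 fold change 0.03, SE 0.046, 95% interval -0.08 to 0.14, adjusted p = 0.777, limma). The interval spans a fold of 0.947 to 1.10, from 10282 to 12514 fragments in each library.

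Fgfr3 (ENSMUSG00000054252, chr5:33721674-33737068, plus strand), the receptor of pillar and Deiters cells and also of growing cartilage, was 35.7, 44.0 and 44.1 FPKM in the knockouts and 41.1, 40.9 and 46.6 in the wild types. Knockout 2 was the lowest library and wild type 5 the highest (log2 fold change -0.06, SE 0.092, 95% interval -0.27 to 0.16, adjusted p = 0.784, limma). The sign turned without knockout 2 (0.04). It also turned without wild type 5, to 0.0025. With sex as a covariate the log2 fold change was -0.14 (adjusted p = 0.202, limma). Fgfr3 shares 13.9% of its exon bases with G630022F23Rik on the opposite strand, which had a mean of 0.3908 FPKM in knockout and 0.2845 in wild type.

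Fgfr2 (ENSMUSG00000030849), a receptor of epithelia and bone, was 26.7, 28.4 and 29.5 FPKM in the knockouts and 23.7, 24.2 and 24.9 in the wild types. All 3 knockout libraries were above all 3 wild type libraries. The means were 28.2 ± 1.41 and 24.3 ± 0.588 (SD, n = 3; log2 fold change 0.20, SE 0.049, 95% interval 0.09 to 0.32, adjusted p = 0.128, limma). With voom on the recovered fragments it was the 1 member called (log2 fold change 0.21, adjusted p = 0.0487), in a fit that called 2.76% of all genes. Over all 17 alternatives the log2 fold change lay between 0.17 and 0.24 and the adjusted p between 0.0487 and 0.316.

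The gene model behind Fgfr2 is unusual in its span. The deposited position, chr7:130162451-133123350 (minus strand), spans 2960900 bp, against 104358 bp in RefSeq. The 314 exon bases outside the RefSeq span, 3.04% of its 10328 exon bases, are shared with Ctbp2, a gene of the same strand that encodes a transcriptional corepressor and the ribbon synapse protein RIBEYE. Ctbp2 had 6.26 ± 0.144 FPKM in knockout and 6.36 ± 0.368 in wild type (SD, n = 3; log2 fold change -0.02, adjusted p = 0.896, limma). Other members also had exon bases outside their RefSeq spans, such as 365 for Fgf10 and 202 for Fgf20. The sources used here do not say how shared fragments were assigned. FPKM per gene cannot separate the epithelial and mesenchymal splice forms of the receptors.

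The Sprouty genes, which encode inhibitors of receptor tyrosine kinase signalling, were each lower on average in knockout. Spry4 (ENSMUSG00000024427, chr18:38586247-38601415, minus strand) was 4.59, 4.40 and 4.44 FPKM in the knockouts and 5.39, 5.42 and 5.12 in the wild types. The groups were separate and narrow, at 4.48 ± 0.104 and 5.31 ± 0.166 (SD, n = 3; log2 fold change -0.20, SE 0.054, 95% interval -0.33 to -0.08, adjusted p = 0.148, limma). Each library gave 320 to 443 fragments.

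Spry2 (ENSMUSG00000022114, chr14:105891947-105896819, minus strand), whose loss in mice is known to give extra pillar cells, was 7.02, 8.24 and 8.50 FPKM in the knockouts and 8.91, 10.5 and 8.99 in the wild types. The groups did not overlap, but the highest knockout and the lowest wild type library were close (log2 fold change -0.23, SE 0.088, 95% interval -0.44 to -0.03, adjusted p = 0.242, limma). Leaving out knockout 2, the lowest, gave -0.16.

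Spry1 (ENSMUSG00000037211, chr3:37639947-37644598, plus strand) was 5.35, 6.14 and 7.44 FPKM in the knockouts and 7.004, 7.45 and 8.12 in the wild types. Knockout 5 lay within the wild type range (log2 fold change -0.23, SE 0.108, 95% interval -0.48 to 0.02, adjusted p = 0.323, limma), and without knockout 2 the log2 fold change was -0.13. Of its exon bases 24.4% lie under Gm42922 on the opposite strand, which was at no more than 0.317 FPKM in any library.

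Etv5 (ENSMUSG00000013089, chr16:22381309-22439719, minus strand) ran opposite to the Sprouty genes. It was 14.0, 14.3 and 14.3 FPKM in the knockouts and 12.3, 13.3 and 12.2 in the wild types. The knockout libraries were above every wild type library, with a narrow spread of 14.2 ± 0.165 against 12.6 ± 0.634 (SD, n = 3; log2 fold change 0.17, SE 0.049, 95% interval 0.05 to 0.28, adjusted p = 0.163, limma).

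**Figure D2:**
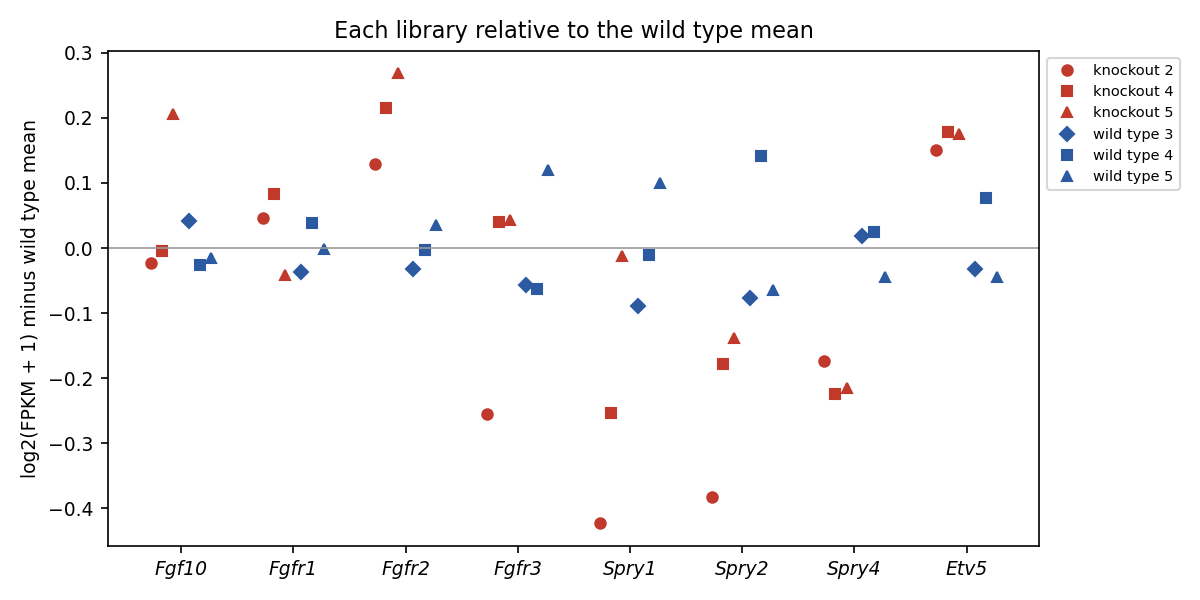
Each library's log2(FPKM + 1) minus the wild type mean, for the 8 genes that passed the filter; red is knockout, blue wild type, and symbols give the replicate number. Fgfr2 and Etv5 have all 3 knockouts above the wild types, Spry2 and Spry4 all 3 below, and knockout 2 is the lowest library for Fgfr3, Spry1 and Spry2.

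Of the set, 8 of the 10 genes passed the filter, and 0 of these passed the adjusted threshold. At an unadjusted p under 0.05 there were 4 (Fgfr2, Spry4, Etv5 and Spry2), where 17.6% of all tested genes were under it (limma). The groups did not overlap for the same 4 of 8, against 24.8% of all tested genes; of these 2 were higher, against 15.2%, and 2 lower, against 9.54%. The median log2 fold change of the 8 was -0.01, beside 0.02 over all tested genes. The largest absolute log2 fold change, 0.23, was in Spry2, and 17.0% of all tested genes had one of at least 0.2. With sex as a covariate the log2 fold changes were 0.18 for Fgfr2, 0.17 for Etv5, -0.25 for Spry2 and -0.19 for Spry4, with adjusted p between 0.149 and 0.253 (limma).

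**Figure D3:**
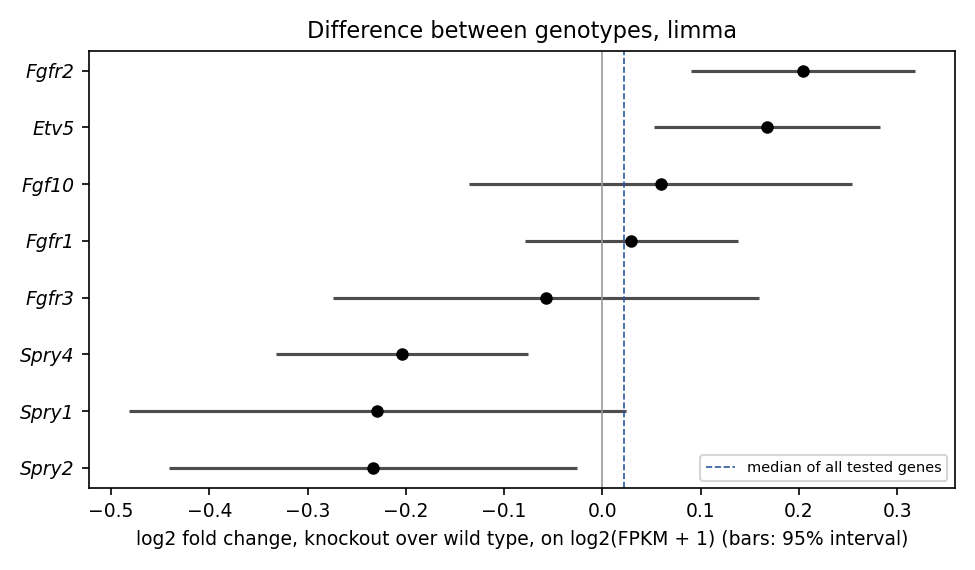
Log2 fold change, knockout over wild type, on log2(FPKM + 1) for the 8 tested genes, with 95% intervals from limma; the dashed line is the median of all tested genes (0.02). The intervals of Fgfr2 and Etv5 lie above 0 and those of Spry2 and Spry4 below, before adjustment for 14072 tests.

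The rest of the pathway was taken from lists by role, in which 74 of 87 genes found in the table passed the filter. After adjustment over all genes 0 of them changed (limma), with 10 at an unadjusted p under 0.05 (13.5%, below the 17.6% of all tested genes). Voom called 1 of 72, Sulf1, where it called 2.76% of all genes. In 20 of the 74 the groups did not overlap, 14 higher and 6 lower in knockout (27.0%, beside 24.8% of all tested genes). The median log2 fold change was 0.02.

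Among other ligands 5 of 15 passed the filter. Fgf1, a ligand of all FGF receptors, was 10.8, 11.6 and 8.95 FPKM in the knockouts and 7.51, 9.34 and 7.59 in the wild types, with an overlap at knockout 5 (log2 fold change 0.32, SE 0.111, adjusted p = 0.205, limma). Fgf18, a ligand in cartilage and bone, was 5.27 ± 1.89 against 5.70 ± 0.721 FPKM. Fgf7, a mesenchymal ligand of epithelial Fgfr2, was 2.66 ± 0.456 against 2.73 ± 0.120, and Fgf9 1.80 ± 0.217 against 1.65 ± 0.263 (SD, n = 3). So Fgf1 and Fgf18 were each above Fgf10 in mean level.

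The intracellular FGF homologues do not act on the receptors and instead bind voltage-gated sodium channels. Fgf12 was 3.66, 3.38 and 3.25 FPKM in the knockouts and 2.05, 2.41 and 2.89 in the wild types, with no overlap (log2 fold change 0.37, SE 0.1004, adjusted p = 0.153, limma). Fgf11 went the other way, at 7.26 ± 0.176 against 7.89 ± 0.340 FPKM, and Fgf13 was 5.43 ± 1.14 against 5.60 ± 0.780 (SD, n = 3).

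Of the other receptors, Fgfr4 was 14.1 ± 0.994 FPKM in knockout and 13.4 ± 0.406 in wild type. Fgfrl1, a receptor that lacks the kinase domain, was 17.3, 20.6 and 20.1 in the knockouts and 22.4, 21.7 and 23.1 in the wild types. Its groups did not overlap (log2 fold change -0.21, SE 0.069, adjusted p = 0.196, limma). The FLRT genes encode membrane proteins that bind FGF receptors; Flrt2 was 10.3 ± 0.771 against 9.76 ± 0.156 and Flrt1 2.21 ± 0.281 against 1.86 ± 0.0986 (SD, n = 3).

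All 20 genes of heparan sulfate and its core proteins passed the filter, with 10 higher and 10 lower in direction. Sulf1, a sulfatase that trims heparan sulfate at the cell surface, was 11.6, 11.3 and 12.4 FPKM in the knockouts and 9.49, 9.94 and 9.46 in the wild types. The groups were well apart (log2 fold change 0.26, SE 0.051, adjusted p = 0.0957, limma, and 0.0241 with voom). Gpc6, a glypican, was 4.63 ± 0.729 against 3.02 ± 0.663 (SD, n = 3; log2 fold change 0.49, adjusted p = 0.163, limma). The abundant core proteins were Gpc1 at 158 ± 11.5 against 153 ± 4.57, Sdc3 at 128 ± 5.26 against 130 ± 3.87 and Hspg2, perlecan, at 116 ± 9.52 against 129 ± 11.9 FPKM.

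In the adaptors and the cascade 14 of 21 genes were higher in direction and 8 did not overlap, 6 of them higher. These are 66.7%, 38.1% and 28.6% of the 21, where 56.9% of all tested genes were higher in direction, 24.8% did not overlap and 15.2% did so on the higher side. Crk, an adaptor, was 31.2, 30.6 and 31.7 FPKM in the knockouts and 28.2, 27.7 and 25.6 in the wild types, with no overlap (log2 fold change 0.19, SE 0.048, adjusted p = 0.131, limma). Map2k2, the kinase MEK2, was lower in all 3 knockouts, at 22.0 ± 1.11 against 24.1 ± 0.739 FPKM (SD, n = 3; log2 fold change -0.13, adjusted p = 0.25, limma). Mapk3, the kinase ERK1, was 68.0 ± 1.06 against 69.5 ± 0.664, Shc1 47.8 ± 1.26 against 50.2 ± 0.802 and Grb2 39.7 ± 2.19 against 41.2 ± 1.36 FPKM (SD, n = 3).

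Of the other feedback and target genes 9 of 18 were higher and 9 lower in direction. Egr1, an immediate early gene, was 38.8, 41.0 and 36.2 FPKM in the knockouts and 47.5, 52.1 and 42.5 in the wild types, with no overlap (log2 fold change -0.28, SE 0.080, adjusted p = 0.161, limma). Ier2, another immediate early gene, was 31.3 ± 0.529 against 35.7 ± 1.75 (adjusted p = 0.134, limma). Dusp7, a MAP kinase phosphatase, was 24.6 ± 1.85 against 24.4 ± 0.509 FPKM. Of genes chosen after their values were seen, Etv4, the close relative of Etv5, was 5.97 ± 0.188 against 5.29 ± 0.322 with no overlap (log2 fold change 0.15, adjusted p = 0.269, limma). Etv1, from the same list, overlapped at 1.91 ± 0.0551 against 1.86 ± 0.173 (log2 fold change 0.03, adjusted p = 0.762, limma). Dusp6, a phosphatase widely used as a readout of FGF signalling, overlapped at 19.1 ± 0.965 against 20.1 ± 1.60 (SD, n = 3), as did Spred1, Spred2 and Il17rd, which encode further inhibitors of the cascade.

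**Figure D4:**
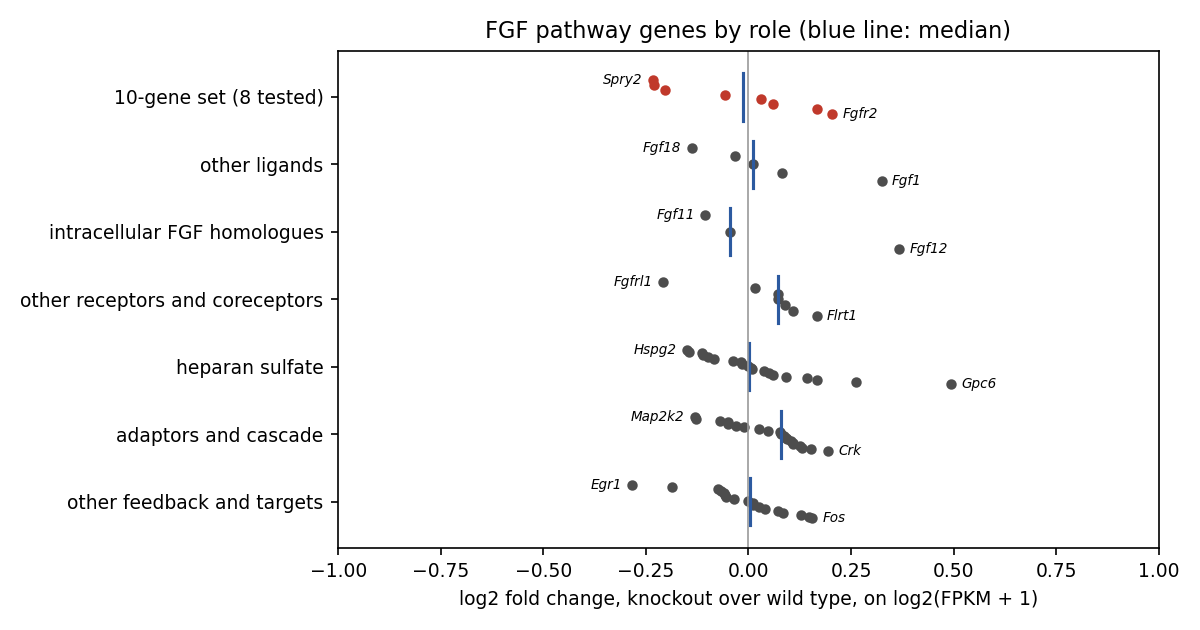
Log2 fold change, knockout over wild type, of each tested gene, with the 10-gene set in red and other pathway genes by role in grey; blue lines are medians, and the lowest and highest gene of each role are named. Medians of the grey roles lie between -0.05 and 0.08, and Gpc6 is the farthest from 0 at 0.49.

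Whole tissue was sequenced, so fewer cells of a type and less RNA per cell cannot be told apart. Marker lists of several cell types were also apart between the groups. Over all tested genes 56.9% were higher in direction in knockout, and for 24.8% the groups did not overlap. No such share was formed for sums of genes. Summed marker FPKM was higher in knockout without overlap for pillar and Deiters cells (151 to 160 against 138 to 145.5; 4 of 9 tested genes higher), hair cells (50.8 to 57.8 against 42.6 to 44.6; 10 of 10), strial marginal cells (86.2 to 92.3 against 72.6 to 76.3; 7 of 7) and osteoblasts (5285 to 6528 against 4861 to 5118; 9 of 9). It was lower without overlap for endothelium (120.1 to 130.4 against 134 to 145.9; 6 of 7 lower), adipocytes (4.99 to 13.1 against 16.8 to 35.2; 6 of 6) and middle ear epithelium (14.2 to 106 against 397.5 to 750.5; 3 of 4). Inner hair cell, neuron, glial, fibroblast, chondrocyte, skeletal muscle, macrophage and neutrophil sums overlapped, muscle with the lowest sum in knockout 4 (35.3) and the highest in wild type 5 (629). Without the most abundant gene of each list, a choice made after these values were seen, pillar and Deiters sums without S100b overlapped (73.3 to 78.2 against 70.45 to 82.4), as did middle ear sums without Bpifa1 (12.6 to 18.3 against 10.2 to 142). The separation of those sums thus depended on S100b and Bpifa1. Single middle ear genes besides Bpifa1 were also lower in every knockout than in every wild type library. These were Muc5b (0.0316 to 0.0925 against 0.481 to 12.23), Reg3g (0.0284 to 0.140 against 0.385 to 13.81) and Foxj1. Muc5b and Reg3g were under the filter, and Bpifb1, Scgb1a1, Ltf and Dynlrb2 overlapped. Otic fibroblast sums without Col1a2 no longer overlapped (547.7 to 602.9 against 461.4 to 485.9), and the hair cell, strial, osteoblast, adipocyte and endothelium sums did not overlap either way. The part of these markers in the differences of Fgfr2, Etv5, Spry2 and Spry4 was not tested.

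**Figure D5:**
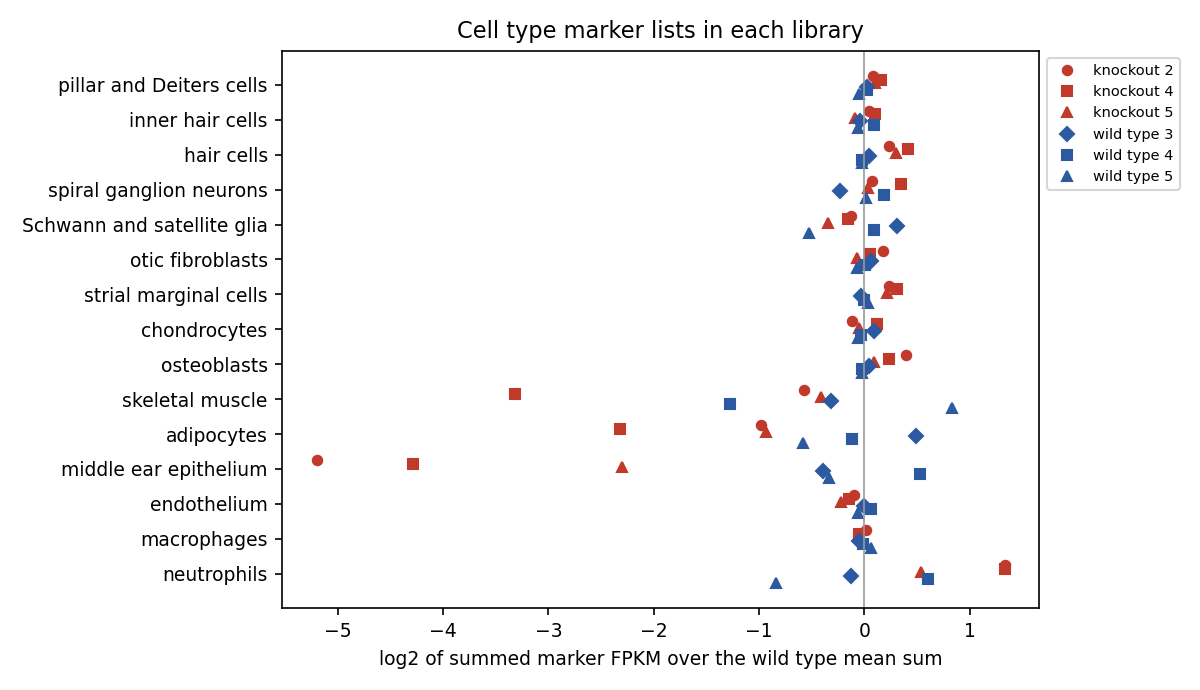
Log2 of the summed FPKM of each marker list over the mean wild type sum, 1 point per library (red knockout, blue wild type, symbols for replicate numbers). Hair cell, strial and osteoblast sums are higher in all 3 knockouts, and middle ear epithelium and adipocyte sums lower in all 3. The middle ear sums overlap without Bpifa1.

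The genes most like a member across the 6 libraries were found by the root mean square difference between standardised log2(FPKM + 1) profiles, among about 8037 tested genes with a mean of at least 5 FPKM. For Etv5 they were Vcam1 (0.066), Rap1b (0.082) and Frmd4b (0.12). For Fgfr1 they were Tfip11 (0.068), Cplx2 (0.14) and Tbx2 (0.16), and for Fgf10 Zfp512 (0.11), Slc35f5 (0.13) and Ube2q2 (0.13). With 6 libraries such profiles also share sex, genotype and tissue makeup.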

How the data were processed

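RNA of 6 cochlea samples was sequenced by the submitters from libraries made with a VAHTS Universal V6 kit, per the labels' protocols. The authors deposited FPKM values per gene, per the file headers. The submitters' processing notes name GRCm38. Aligner, counter, strand setting and quality filters: not given in the sources used here. Multiplied by GENCODE M21 exon length, the values of 98.3% of genes fell on whole fragments in all libraries (tolerance 0.01 fragment and 1e-06 of the value), and this gave fragments and library totals.

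Genes with at least 1 FPKM in at least 3 libraries were tested across all genes on log2(FPKM + 1) with limma (lmFit, eBayes with a trend), two-sided, Benjamini-Hochberg adjusted at 0.05. This scale understates changes of low genes, such as Fgf10. Low members were given as fragments with exact intervals at 95%. The fit was tested on simulated data. Replicate numbers 4 and 5 occur in both groups, but nothing in the labels makes them pairs. Alternatives covered pseudocount, filter, scaling, variance model, library weights, sex, a replicate block, voom and leaving out each library. The members and the gene lists were chosen with earlier results of these data known. Named were all 10 members and, for each other role, called genes, the 3 most abundant and the 2 with the smallest p. Of the listed genes, Spry3 and Fam19a3 were not matched by symbol, and 1 gene of the pathway lists is not reported here. Software: limma 3.58.1 in R 4.3.3, and pandas 2.3.3, numpy 2.4.6 and matplotlib 3.10.9 in Python 3.11.15.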

Additional observations from a re-analysis of the deposited data

How the results depend on the processing

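The count of all genes changed, 47, became 19 with no filter on low values, 103 with genes of 5 FPKM or more, 19 without the trend, 104 with library weights, 24 with sex as a covariate, 22 with the replicate block, 381 with voom, and 12 to 105 when 1 library was left out. The count of FGF members changed, 0, became 1 (Fgfr2) with voom and stayed 0 in the other 16 alternatives. The count of other pathway genes changed, 0, became 1 (Sulf1) with voom and stayed 0 in the other 16 alternatives. With 1 library left out the count of members whose groups did not overlap was 4 to 6 of 8, where 33.5% to 36.1% of all tested genes did not overlap.

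Etv5, Fgfr1, Fgfr2 and the 3 Sprouty genes kept their direction in all 17 alternatives. With 1 library left out the log2 fold change of Fgf10 was -0.0139 (without knockout 5) to 0.1005. That of Fgfr3 was -0.1074 to 0.0416 (turning without knockout 2, and to 0.0025 without wild type 5), 0.013 with the replicate block and -0.1364 with sex as a covariate. The difference of Neu4 means in FPKM was -0.011 (without wild type 3) to 0.0158, turning also to -0.00932 without knockout 4 and -0.000999 without knockout 5. The cause of these turns was not tested. The block used only the libraries numbered 4 and 5 and changed no member's call. Deviations of these like-numbered libraries correlated at 0.141 and 0.15, and those of knockout 2 and wild type 3 at 0.11. Depth limits Fgf8 and Fgf20, with 34 and 6 fragments in all.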
